A study of Mus musculus with 6 samples.

Results

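Transcripts of the nuclear genes for the subunits of oxidative phosphorylation were described in mouse embryonic fibroblasts on day 2 of reprogramming. The genes were taken from a table of 18303 lines by name: Ndufa, Ndufb, Ndufc, Ndufs or Ndufv with a digit (complex I), Sdha to Sdhd (complex II), Uqcr (complex III), Cox4 to Cox8 (complex IV) and Atp5 (complex V). Of 81 such names, 78 had a mean of at least 1 RPKM (reads per kilobase of transcript, relative to the library total) over the libraries and were tested among 11939 genes. They comprised 35 genes of complex I, 4 of complex II, 8 of complex III, 14 of complex IV and 17 of complex V. Atp5s and Atp5sl came in by name and are not established subunits of the enzyme, and Ndufa4, counted here with complex I by its name, is now placed in complex IV. The 3 genes left out were Cox8b (mean 0.0247 RPKM), Cox6a2 (0.131) and Ndufa4l2 (0.61), and the lowest kept were Cox4i2 (1.07), Cox7a1 (1.12) and Atp5s (3.04).

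The series asked how the CDP-ethanolamine pathway, which makes the membrane lipid phosphatidylethanolamine, acts on early reprogramming. All cells were mouse embryonic fibroblasts of the strain CBA/CaJ X C57BL/6J in the defined medium iCD1, and all received short hairpin RNAs. The control group (shLuc, hairpin against luciferase) held 2 libraries. The other groups held 1 library each: shEtnk1/2 (ethanolamine kinases), shPcyt2 (the next enzyme of the pathway), shPebp1 (phosphatidylethanolamine-binding protein 1), and Etn-deprived, which carried shLuc in iCD1 without ethanolamine (Etn). Nothing says that the shLuc libraries came from separate cultures, so p-values measure only the spread between these samples. Treated libraries, having no replicate, were taken to have the spread of shLuc.

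The respiratory chain sits in the inner mitochondrial membrane. Complexes I and II pass electrons from NADH and succinate to ubiquinone, complex III passes them to cytochrome c and complex IV to oxygen, while complexes I, III and IV pump protons that drive ATP synthesis by complex V. The catalytic subunits are surrounded by many small accessory subunits whose messenger RNAs are short, and a few subunits are encoded by mitochondrial DNA, of which 0 of 13 genes stood in the table. Fibroblasts lean on respiration more than pluripotent cells do, and the shift to glycolysis is an early event of reprogramming.

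Library totals lay between 18599217 (Etn-deprived) and 20164255 reads (shLuc replicate 1). Etnk1 had 12.5 RPKM in shEtnk1/2 against 21.0 and 21.4 in shLuc, and Pcyt2 had 29.9 in shPcyt2 against 42.0 and 40.0. Pcyt2 was also below both shLuc libraries in the Etn-deprived (33.5), shEtnk1/2 (35.6) and shPebp1 libraries (38.3). Etnk2 lay under the filter, with 0.333 RPKM in shEtnk1/2 against 0.457 and 1.00. Pebp1 had 99.6 RPKM in shPebp1 but also 100.7 in the library labelled shLuc replicate 2, against 250.4 in replicate 1, so that library goes against its label, and the main counts are also given without it. Of 6 fibroblast markers, 6 were measured, with summed levels from 6800 to 10000 RPKM. Of 38 markers of other cells 34 were measured and 16 passed the filter. The summed levels of all 34, by cell type, reached at most 21.9 (epithelial), 62.1 (macrophage), 25.4 (endothelial), 6.98 (muscle), 4.46 (adipocyte) and 79.0 RPKM (neural). The part of these cells in the results was not tested. In bulk RNA, fewer cells of a type and less RNA per cell cannot be told apart.

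In shLuc cells the subunit transcripts were abundant and short. Their median level was 74.5 RPKM (mean of the shLuc libraries), against 12.1 over all tested genes, and their median length was 686.5 nt (292 to 2927) against 2923 nt. By complex the median level per length was 49.5 RPKM in I, 73.4 in II, 88.2 in III, 129 in IV and 142 in V. The highest was Atp5b, the catalytic beta subunit of ATP synthase, at 492.0 and 515.9 RPKM in shLuc replicates 1 and 2. Next came Cox4i1, the ubiquitous form of subunit 4 of cytochrome c oxidase, at 399.8 and 391.3 RPKM, and Atp5a1, the alpha subunit of ATP synthase, at 317.7 and 333.1. The shLuc values of these 3 genes did not overlap with each other.

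**Figure D1:**
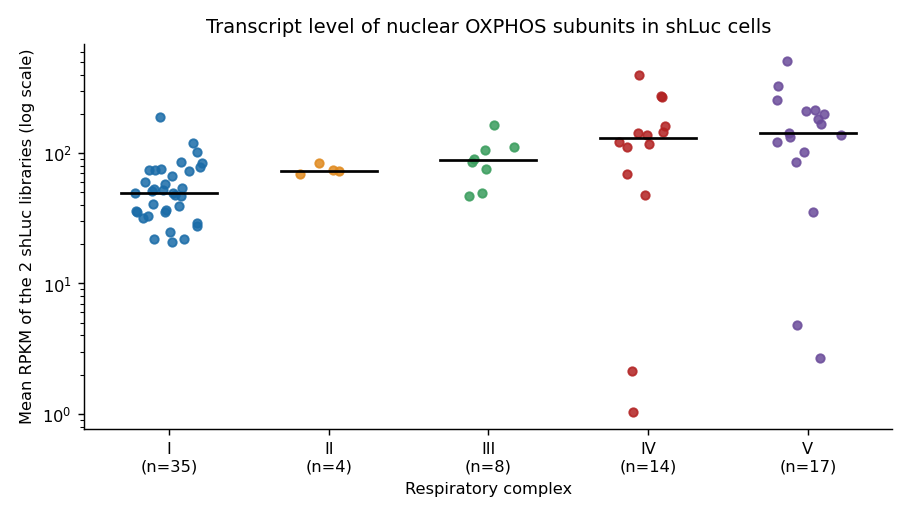
Each point is 1 gene, at its mean RPKM over both shLuc libraries on a log axis, by respiratory complex. Lines mark the medians, which go from 49.5 RPKM in complex I to 142 in complex V, and the low points in complexes IV and V are Cox4i2, Cox7a1, Atp5s and Atp5sl.

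Genes with tissue forms were read mostly from the general form. Cox4i2, the form of subunit 4 known from lung and low oxygen, had 0.887 and 1.19 RPKM in shLuc, and Cox7a1, the heart and muscle form of subunit 7a, had 2.57 and 1.67, beside 64.6 and 73.5 for Cox7a2 and 140.4 and 146.3 for Cox7a2l, a relative of subunit 7a that joins supercomplexes. Cox6b2, best known from testis, stood at 46.8 and 47.9 RPKM beside 162.9 and 160.9 for the general Cox6b1. The 3 genes of the ATP synthase c subunit, whose mature proteins are alike, had 83.8 and 85.6 (Atp5g1), 274.5 and 240.4 (Atp5g2) and 201.6 and 223.3 RPKM (Atp5g3). Many genes of this family have processed pseudogenes, and how the authors' counting shared reads among copies is not given in the sources used here.

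Genes of the respiratory chain are known targets of the transcription factors NRF1, GABP and YY1, so their promoters were read for short motifs. RefSeq windows (build GRCm38.p6, 250 bases before to 50 after the start) matched 62 of the 78 genes by symbol, with a start no more than 1000 nt from that in the table. On either strand, the NRF1 motif GCATGCGC stood in 10 of 62 windows (16.1%), against 5.96% of 8261 tested genes. The YY1 letters AAGATGGC stood in 9 of 62 (14.5%, against 5.01%), and the ETS letters CCGGAAGT, the type bound by GABP, in 5 of 62 (8.06%, against 9.18%). In no window did matches to different motifs overlap. Genes that fell in the Etn-deprived library held the NRF1 motif in 6 of 29 windows and the others in 4 of 33. For ETS the counts were 1 of 29 and 4 of 33, and for YY1 3 of 29 and 6 of 33. A match is a string of letters and not a bound site. The 120 bases before the RefSeq start are shown for 5 genes that fell without Etn and for Sdhb and Uqcrh, which did not pass the test, with matches in capitals. Atp5g2 and Ndufa11 hold the NRF1 motif on both strands at once, Sdhb on 1 strand, and Uqcr11 and Uqcrh hold the ETS letters in opposite orientation. Ndufa12 and Ndufc2, with some of the largest differences, hold none of the searched letters in this stretch. The table's start of Ndufa12 is 26 nt from that of RefSeq, and the others agree.
Ndufa12, chr10:94198915-94199034, plus strand: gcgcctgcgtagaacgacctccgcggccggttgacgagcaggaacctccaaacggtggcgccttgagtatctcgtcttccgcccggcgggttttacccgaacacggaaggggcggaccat
Ndufc2, chr7:97399883-97400002, plus strand: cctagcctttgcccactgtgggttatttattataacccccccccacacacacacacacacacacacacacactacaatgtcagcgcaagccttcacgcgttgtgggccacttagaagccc
Atp5g2, chr15:102671048-102671167, minus strand: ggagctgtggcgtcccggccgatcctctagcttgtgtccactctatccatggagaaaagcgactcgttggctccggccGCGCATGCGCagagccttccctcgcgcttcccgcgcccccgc
Ndufa11, chr17:56717642-56717761, plus strand: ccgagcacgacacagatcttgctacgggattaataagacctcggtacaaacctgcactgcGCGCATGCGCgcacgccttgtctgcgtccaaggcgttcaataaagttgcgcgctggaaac
Uqcr11, chr10:80406822-80406941, minus strand: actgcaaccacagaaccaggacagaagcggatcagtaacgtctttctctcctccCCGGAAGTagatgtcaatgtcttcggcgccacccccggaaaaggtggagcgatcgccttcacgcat
Sdhb, chr4:140961151-140961270, plus strand: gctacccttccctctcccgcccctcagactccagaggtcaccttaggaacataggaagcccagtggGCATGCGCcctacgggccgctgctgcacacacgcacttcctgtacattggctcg
Uqcrh, chr4:116075071-116075190, minus strand: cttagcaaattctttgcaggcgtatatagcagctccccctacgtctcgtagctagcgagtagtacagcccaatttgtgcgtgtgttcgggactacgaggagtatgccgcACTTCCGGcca

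The first comparison took Etn, from which the pathway starts, out of the medium. Small subunits of complexes I, III, IV and V had lower transcript levels than in shLuc, led by the accessory subunits Ndufa2, Ndufa12 and Ndufc2 of complex I and Uqcrq of complex III. Of the 78 genes, 32 fell (limma, Benjamini-Hochberg adjusted over all genes) and 0 rose. Over all 11939 genes 3.22% were called lower and 0.586% higher, beside 41.0% and 0.0% of the subunit genes. The median difference in log2(RPKM + 1), a scale that understates the change of low values, was -0.26 against -0.01 for all genes, and the shLuc libraries differed from each other by a median of 0.01. In 66 of 78 genes the value lay below both shLuc libraries (41.9% of all genes did), and in 5 above both (36.0%). Without the library labelled shLuc replicate 2 the median was -0.24, and with the spread then taken from treated libraries limma called 0 (23 at an unadjusted p under 0.05). Without shLuc replicate 1 these were -0.27 and 0 (20). Against replicate 1 alone the differences of Ndufa2, Ndufa12, Ndufc2 and Uqcrq were -1.06, -0.96, -0.92 and -0.78. Summed markers of muscle came to 3.70 RPKM in this library against 5.67 and 6.98 in shLuc, of epithelium to 18.6 against 21.2 and 21.9, of neural cells to 64.0 against 67.1 and 71.9 and of fibroblasts to 8060 against 7470 and 7620, and their part in the result was not tested.

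**Figure D2:**
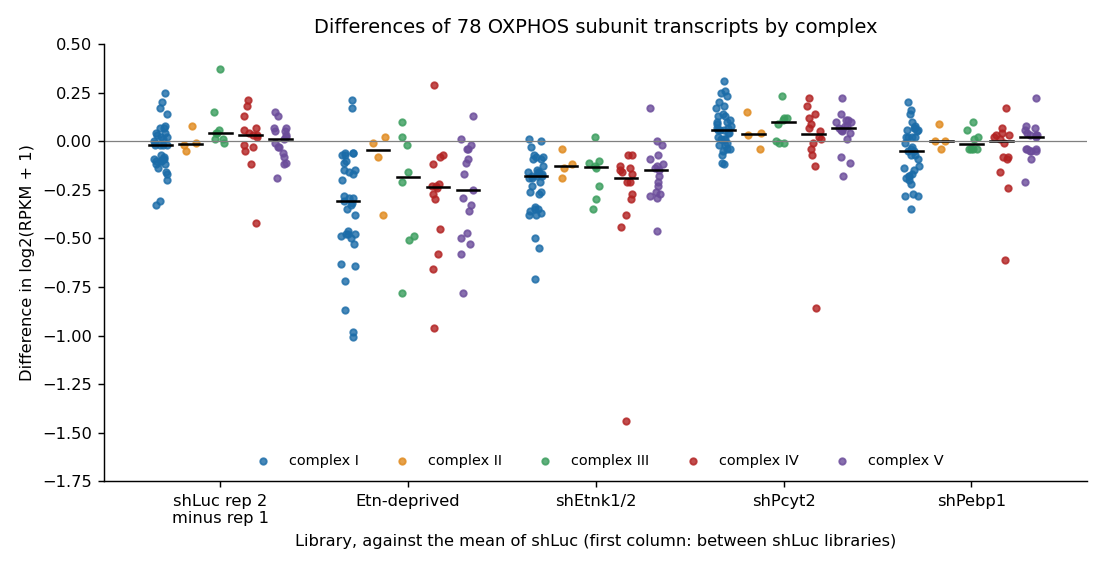
Each point is the difference of 1 gene in log2(RPKM + 1) from the mean of the shLuc libraries, by library and complex, with lines at the medians. The first column gives the difference between the shLuc libraries, and the medians of all 5 complexes lie below 0 in the Etn-deprived and shEtnk1/2 columns, with complex I at -0.31 in the Etn-deprived library.

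Complex I held 17 of the 32 genes that fell, of 35 tested (median -0.31). Of the 7 core subunits in the arm that holds the redox centres 0 were called (median -0.07), and of the 28 others 17 were (median -0.36), a contrast between gene sets that was not tested. Ndufa4, now placed in complex IV, is counted in the 28 and in the 17. Ndufa2, an accessory subunit of the matrix arm, had 49.4 and 45.9 RPKM in shLuc, 23.1 (95% Poisson interval 20.4 to 26.1) without Etn, 33.4 in shEtnk1/2, 50.2 in shPcyt2 and 39.0 in shPebp1. The Etn-deprived value was the lowest and shEtnk1/2 the next, while shPcyt2 lay above both shLuc libraries. The difference without Etn was -1.01 (SE 0.08, limma adjusted p = 0.000274, from 1.74e-08 to 0.843 over its 9 alternatives).

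Ndufa12 (mm10 chr10:94199009-94220948, 561 nt), another accessory subunit of the matrix arm, had 73.0 and 74.5 RPKM in shLuc, 37.0 without Etn, 44.6 in shEtnk1/2, 71.2 in shPcyt2 and 63.0 in shPebp1. Its level without Etn was 50.2% of the shLuc mean (-0.98, SE 0.07, limma adjusted p = 0.000189, 6.2e-09 to 0.858 over its alternatives). Ndufc2 (chr7:97400003-97407800, 681 nt), of the membrane arm, had 80.2 and 75.1 RPKM in shLuc, 41.9 without Etn, 59.3 in shEtnk1/2, 81.4 in shPcyt2 and 80.9 in shPebp1. It stood at 54.0% of shLuc without Etn (-0.87, SE 0.07, limma adjusted p = 0.00031, 4.05e-08 to 0.843 over its alternatives). In both genes the Etn-deprived and shEtnk1/2 libraries were lowest, and shPebp1 and shPcyt2 stood much nearer to shLuc.

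Of the Ndufa genes 11 of 13 fell: beside Ndufa2 and Ndufa12 these were Ndufa3 (-0.64), Ndufa1 (-0.63), Ndufa5 (-0.50), Ndufa13 (-0.49), Ndufa7 (-0.48), Ndufa11 (-0.48), Ndufa4 (-0.38), Ndufa8 (-0.33) and Ndufa10 (-0.31). Ndufa1 is a small membrane subunit needed for assembly of the complex, and Ndufa13 is also known as GRIM-19, a protein linked to cell death. Of the Ndufb genes, which code for the membrane arm, 4 of 10 fell, namely Ndufb7 (-0.53), Ndufb8 (-0.48), Ndufb10 (-0.46) and Ndufb4 (-0.29). Ndufs6, a zinc-binding subunit of the matrix arm, was the 1 of 7 Ndufs genes called lower, with 12.9 RPKM where shLuc had 24.5 and 19.6 (-0.72, SE 0.13, adjusted p = 0.0316), and 0 of 3 Ndufv genes were called.

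The core subunits lay close to shLuc. Ndufv1, which binds NADH and flavin, had 49.0 and 44.3 RPKM in shLuc and 40.5 without Etn (-0.20, limma adjusted p = 0.227), below both shLuc libraries. Ndufs1, the largest iron-sulphur subunit, was the only core gene above both, at 38.0 against 32.9 and 32.4 RPKM (0.21, SE 0.08, adjusted p = 0.177). Their transcripts were also longer, with a median of 1606 nt against 618.5 nt for the other complex I genes.

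**Figure D3:**
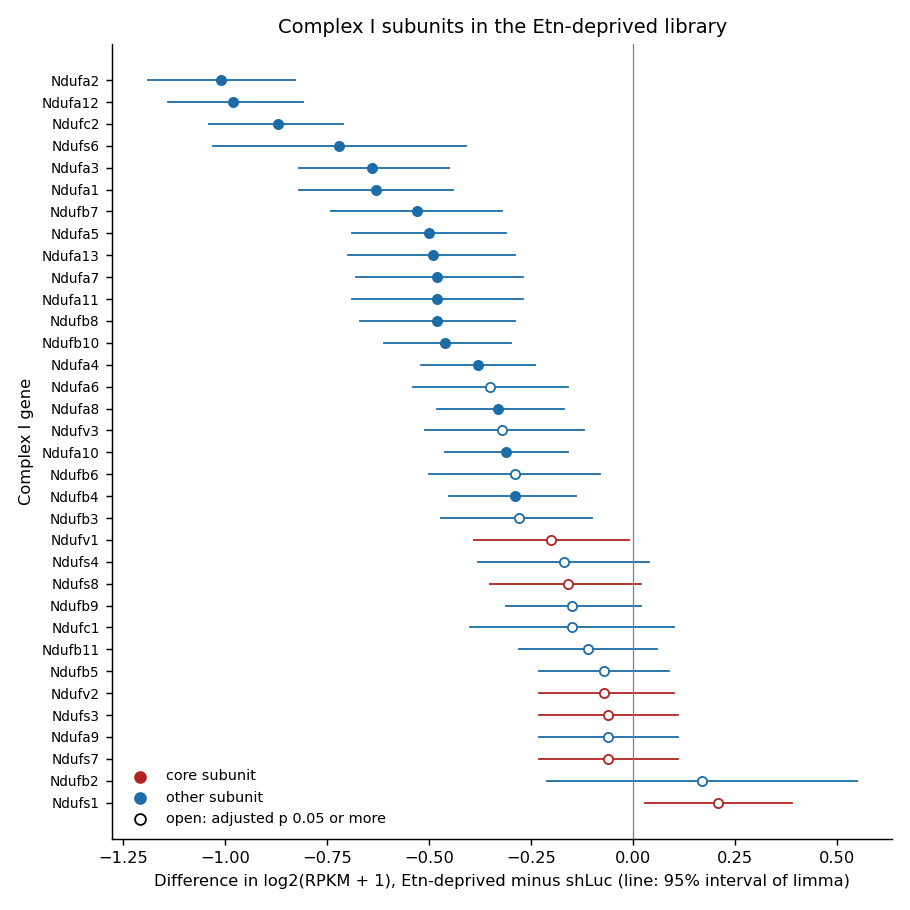
Complex I genes, with 1 of the 35 not shown, ordered by their difference in log2(RPKM + 1) between the Etn-deprived library and the shLuc mean, with 95% intervals from limma. Filled points passed the adjusted threshold of 0.05, and the core subunits in red all lie at open points, from -0.20 to 0.21.

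In complex II, succinate dehydrogenase, 1 of 4 genes fell without Etn (median -0.05). This was Sdhd, a membrane anchor, at 53.0 against 67.4 and 71.1 RPKM in shLuc (-0.38, SE 0.07, limma adjusted p = 0.0214). The flavoprotein gene Sdha had 68.3 RPKM against 72.6 and 72.1, the iron-sulphur gene Sdhb 75.3 against 74.9 and 73.9, and the other anchor gene Sdhc 83.4 against 85.7 and 82.6. Of these 3, Sdha lay below both shLuc libraries, Sdhb above both and Sdhc between them.

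Complex III had 3 of 8 genes lower, all of them small subunits (median of the complex -0.19). Uqcrq (chr11:53428948-53430831, 499 nt), known as the ubiquinone-binding protein, had 75.5 and 76.2 RPKM in shLuc, 43.6 without Etn, 61.5 in shEtnk1/2, 81.9 in shPcyt2 and 73.5 in shPebp1. The Etn-deprived library was lowest, shEtnk1/2 next and shPebp1 just below both shLuc values. The difference without Etn was -0.78 (SE 0.07, limma adjusted p = 0.000397, 1.5e-07 to 0.655 over its alternatives). Uqcr11 (-0.51) and Uqcr10 (-0.49) also fell. The large core proteins Uqcrc1 and Uqcrc2 differed by 0.02 and -0.02, and Uqcrfs1, the Rieske iron-sulphur protein, by 0.10 (SE 0.18) with shLuc values as far apart as 40.9 and 53.3 RPKM.

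In complex IV 4 of 14 genes fell (median -0.24). Cox6b2 had 29.5 RPKM against 46.8 and 47.9 (-0.66, SE 0.08, limma adjusted p = 0.00175) and the general form Cox6b1 108.3 against 162.9 and 160.9 (-0.58, adjusted p = 0.00161), both subunits of the side that faces cytochrome c. Cox5b (-0.45), a zinc-binding subunit on the matrix side, and Cox7b (-0.30) were the others. Not every short transcript of the complex was called: Cox6c, of 503 nt and so close in length to Cox6b1 at 505 nt, had 130.5 and 143.0 RPKM in shLuc and 129.2 without Etn (-0.08, SE 0.07, 95% interval -0.24 to 0.09, adjusted p = 0.595). Cox4i1 had 338.2 RPKM, below both shLuc libraries, and did not pass the test (-0.23, adjusted p = 0.0724). Cox7a1 had 4 reads without Etn against 19 and 12 in shLuc, a ratio of 0.276 (exact 95% interval 0.0709 to 0.782, counting error only), and did not pass it either. Its ratio was also low in shPcyt2 (0.332, interval 0.101 to 0.861) and in shPebp1 (0.483, interval 0.18 to 1.12).

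Complex V held 7 of 17 genes that fell (median -0.25). Atp5k, the e subunit of the membrane part, had 35.2 and 35.0 RPKM in shLuc and 20.1 without Etn (-0.78, SE 0.08, limma adjusted p = 0.00108), and it had the shortest transcript of all the genes at 292 nt. Atp5e, the epsilon subunit of the central stalk, had 94.2 RPKM against 139.1 and 144.4 (-0.58, adjusted p = 0.00172). The c-subunit genes Atp5g1 (-0.53) and Atp5g2 (-0.50) fell, as did Atp5l (-0.47), a membrane subunit, Atp5d (-0.36), the delta subunit, and Atp5o (-0.33), the stalk protein known as OSCP. The catalytic head differed little: Atp5a1 had 327.7 RPKM, between its shLuc values, and Atp5b had 474.7 (-0.09, SE 0.06, adjusted p = 0.478). Summed over the genes of each complex, RPKM without Etn came to 80.1% of the shLuc mean in complex I, 93.3% in II, 85.7% in III, 84.0% in IV and 86.0% in V. The sum over all genes was also lower in this library, at 381894.5 RPKM against 398800.3 and 396515.6 in shLuc.

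**Figure D4:**
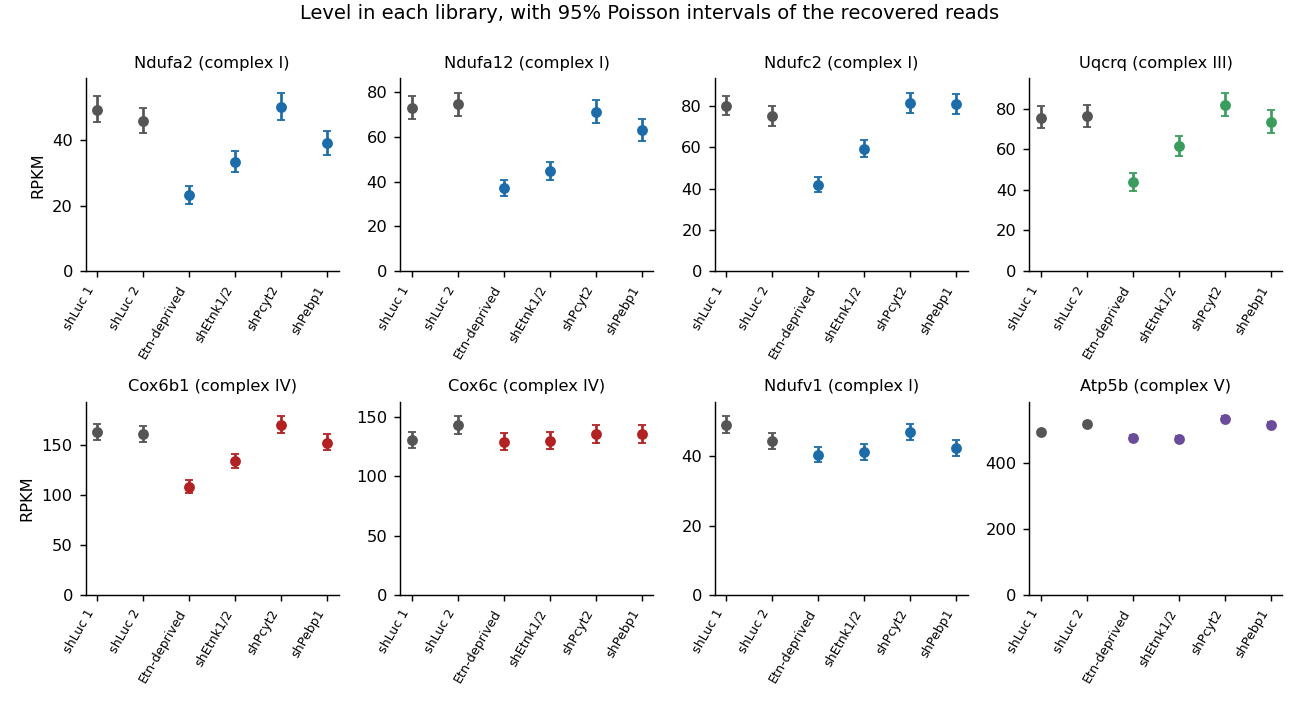
RPKM of 8 genes in each of the 6 libraries, with 95% Poisson intervals of the recovered reads, which cover counting error only. Ndufa2, Ndufa12, Ndufc2, Uqcrq, Cox6b1 and Ndufv1 are lowest in the Etn-deprived library. Cox6c is lowest there too but ranges only from 129.2 to 143.0 RPKM over the libraries, and Atp5b is lowest in shEtnk1/2.

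The differences moved with transcript length. Among all tested genes of up to 500 nt, 23.0% were called lower without Etn (median difference -0.23), and in the next class, up to 700 nt, 32.1% (median -0.26). From there the share went down through 14.7% (up to 1000 nt), 7.83% (up to 1500 nt) and 2.51% (up to 2500 nt) to 0.479% of longer genes. In the same classes 9 of 14 subunit genes were called up to 500 nt (median -0.50), 13 of 26 up to 700 nt (-0.40), 4 of 12 up to 1000 nt (-0.11), 5 of 13 up to 1500 nt (-0.16), 0 of 10 up to 2500 nt (-0.08) and 1 of 3 above. The last was Ndufa11, whose gene model counted 2661 nt. The members' medians lay below those of all genes in 5 of the 6 classes, the medians of all genes being -0.13 up to 1000 nt, where the members' did not, -0.10 up to 1500 nt, -0.04 up to 2500 nt and 0.02 above (members there -0.08). Spearman's rho between length and difference was 0.51 across 77 subunit genes and 0.25 across 11404 genes, which share libraries and are not independent. With GC content it was -0.21 and -0.50, the subunit genes having a median GC of 51.6% against 50.2%.

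**Figure D5:**
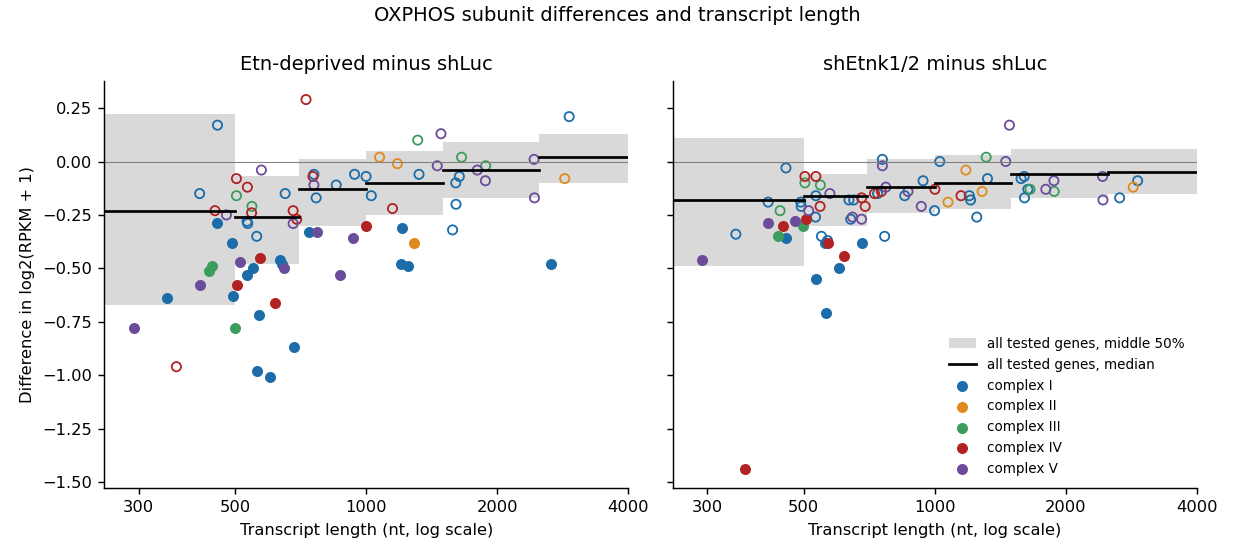
Difference in log2(RPKM + 1) from shLuc against transcript length (log axis) for the Etn-deprived (left) and shEtnk1/2 (right) libraries. Points are subunit genes, filled where limma called them, and black lines and grey bands are the median and middle 50% of all tested genes per length class; on the left the median of all genes goes from -0.23 in the shortest class to 0.02 in the longest.

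When the trend with length was removed from every library before the test, 4 of 78 subunit genes were still called lower without Etn and 0 higher, where 0.318% of all genes were called lower and 0.218% higher. Of the subunit genes 33 were at an unadjusted p under 0.05. The 4 were Ndufa2 (-0.78, limma adjusted p = 0.00705), Ndufa12 (-0.74, adjusted p = 0.00646), Ndufc2 (-0.66, adjusted p = 0.00742) and Uqcrq (-0.53, adjusted p = 0.0217), and the same 4 were called with length and GC content removed together. The median of all 78 genes went from -0.26 to -0.07. By complex it became -0.12 (I), 0.01 (II), 0.03 (III), -0.04 (IV) and -0.08 (V). Within complex I it became -0.01 for core and -0.22 for other subunits. For these 4 genes the call held with both trends removed, and the other 28 no longer passed with length removed. Their differences then lay between -0.48 (Ndufs6, adjusted p = 0.14) and -0.02 (Ndufb4, adjusted p = 0.891). Ndufa11, with its long gene model, went only from -0.48 to -0.46 (adjusted p = 0.0729), and Ndufa13 from -0.49 to -0.39 (adjusted p = 0.101).

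The shEtnk1/2 library asked what lower ethanolamine kinase does. Here 16 of 78 subunit genes fell and 0 rose, where 2.37% of all genes were called lower and 1.09% higher. The median was -0.18 beside -0.06 for all genes, and 72 of 78 lay below both shLuc libraries (51.9% of all genes) and 1 above both (25.0%). This library also had the highest summed fibroblast (10000 RPKM, against 7470 and 7620 in shLuc) and macrophage markers (62.1, against 49.4 and 51.8) and the lowest epithelial (13.1, against 21.2 and 21.9) and neural ones (55.4, against 67.1 and 71.9), and muscle markers came to 3.82 against 5.67 and 6.98. Their part in the result was not tested. By complex 6 (I), 0 (II), 2 (III), 5 (IV) and 3 (V) fell. Ndufa12 again stood out, at 44.6 RPKM (-0.71, SE 0.07, limma adjusted p = 0.00182, 2.17e-06 to 0.997 over its alternatives), followed by Ndufb6 of the membrane arm, at 33.5 RPKM against 46.1 and 53.0 (-0.55, adjusted p = 0.0192), Ndufa2 (-0.50, adjusted p = 0.0132) and Atp5k (-0.46, adjusted p = 0.0176). Cox7a1 had 1 read against 19 and 12, a ratio of 0.065 (exact 95% interval 0.0016 to 0.39), and was called by limma (-1.44, adjusted p = 0.0149). Both libraries are compared with the same shLuc pair, and 11 genes were called in both, which is 34.4% of the 32 and 68.8% of the 16. The overlap over all genes is not given here, so these shares cannot be read as particular to the subunit genes. The other 5 in shEtnk1/2 were Cox7a1, Ndufb6, Ndufa6 (-0.38), Cox7c (-0.30) and Atp5j2 (-0.28). Cox7a1 passed the filter, with a mean of 1.12 RPKM, mainly through its shLuc values of 2.57 and 1.67. It had 0.138 RPKM in shEtnk1/2, 0.588 in Etn-deprived, 0.705 in shPcyt2 and 1.03 in shPebp1. The filter thus favoured a lower call for Cox7a1, and its place among the 16 carries no weight.

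The shEtnk1/2 counts depended on scaling and length. Scaled to a common median ratio, 6 subunit genes were called, and over all genes 102 were lower and 138 higher in place of 283 and 130. With the length trend removed only Ndufa12 was called (0.494% of all genes were called lower and 0.989% higher), and with GC content also removed Ndufa12 and Cox7a1. Without the library labelled shLuc replicate 2 the median was -0.19 and 0 were called (2 at an unadjusted p under 0.05), and without replicate 1 it was -0.17 and 0 (5).

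In the shPcyt2 library, with Pcyt2 lower in part, more subunit genes lay above both shLuc libraries than below. The median was 0.06 against -0.02 for all genes, 48 of 78 lay above both shLuc libraries (29.0% of all genes) and 12 below both (39.4%). Short genes of any kind lay higher here than long ones. The median of all genes was 0.02 up to 500 nt, 0.04 up to 700 nt, 0.05 up to 1000 nt and -0.04 above 2500 nt. Subunit genes in these classes had 0.08, 0.08, 0.09 and -0.01. With the length trend removed their median over all lengths was 0.04. Limma called 0 in either direction, against 0.0586% of all genes lower and 0.0503% higher, with 13 at an unadjusted p under 0.05. The reads recovered from RPKM gave 0 calls by limma-voom too. The shPebp1 library had a median of -0.02 against 0.01, with 32 of 78 below both shLuc libraries (31.7% of all genes) and 26 above both (36.6%). Limma and limma-voom called 0 (9 by limma at an unadjusted p under 0.05), where limma called 0.0921% of all genes lower and 0.00838% higher. With shEtnk1/2, shPcyt2 and Etn-deprived taken as 1 group of 3 against shLuc, limma called 0 subunit genes and 0.0% of all genes. By limma 5 were at an unadjusted p under 0.05, with a median of -0.13. Limma-voom also called 0, with 7 at an unadjusted p under 0.05. Without the library labelled shLuc replicate 2 the medians were 0.06 (shPcyt2), -0.01 (shPebp1) and -0.14 (the 3 libraries), with 0 calls by limma in each and 1 gene at an unadjusted p under 0.05 in each.

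Differences between treatments were tested directly, 1 library against another. Their spread came from the shLuc pair alone, which includes the library that goes against its label. Limma called Etn-deprived lower than shPcyt2 in 30 of 78 genes (2.73% of all genes) and higher in 0 (0.494%). Of these 30, 28 were also among the 32 called against shLuc, and the other 2 were Cox5a and Cox8a. Both comparisons use the same Etn-deprived library and the same spread from shLuc, so this overlap is not independent evidence. Ndufa2 differed by -1.09 between these libraries (limma adjusted p = 0.000393). With the length trend removed 5 stayed called (of all genes 0.385% were called lower and 0.142% higher), Ndufa2, Ndufa12, Ndufc2, Uqcrq and Cox6b2. Etn-deprived was called lower than shPebp1 in 15 genes (0.988% of all genes) and higher in 0 (0.235%). The 15 became 7 with a common median ratio and 1 with the length trend removed (of all genes 0.0419% lower and 0.0922% higher). Against shEtnk1/2 limma called it lower in 3 genes (0.477% of all genes) and higher in 0 (0.377%): Ndufa2 (-0.51, adjusted p = 0.0354), Ndufc2 (-0.49, adjusted p = 0.0273) and Uqcrq (-0.48, adjusted p = 0.0233). Ndufa12 differed between them by -0.26 (adjusted p = 0.197). With the length trend removed 0 were called here (17 at an unadjusted p under 0.05; of all genes 0.268% lower and 0.235% higher). By limma-voom 1 was called, Ndufc2. With shLuc replicate 2 left out and the spread taken from the 3 libraries outside each pair, an alternative chosen after seeing the data, limma called 0 subunit genes against shPcyt2 (32 at an unadjusted p under 0.05), 0 against shPebp1 (18) and 0 against shEtnk1/2 (19). The differences themselves do not use shLuc and were unchanged.

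Other genes of the pathway were read from fixed lists. Of 39 measured assembly factors, which build the complexes and are not part of them, 4 fell without Etn (10.3%, beside 3.22% of all genes, median -0.06, median length 1732 nt). The 4 had shorter transcripts, of 473 to 1067 nt. In the length classes that hold them, 7.83% to 32.1% of all genes were called lower. Whether the list differs from genes of like length was not tested. These were Uqcc2 (-0.59, limma adjusted p = 0.00511) for complex III, Ndufaf2 (-0.58, adjusted p = 0.0124) and Ndufaf3 (-0.48, adjusted p = 0.0437) for complex I, and Cox14 (-0.48, adjusted p = 0.0422) for complex IV. In shEtnk1/2 1 fell (2.56%, near the 2.37% of all genes), Taco1 (-0.45, adjusted p = 0.0491), an activator of translation of a mitochondrial subunit. Limma called 0 of 5 carriers and further subunits, among them cytochrome c and c1 (median -0.14, 2 at an unadjusted p under 0.05), 0 of 13 enzymes of the citric acid cycle (median -0.02, 4 at an unadjusted p under 0.05) and 0 of 10 regulators of mitochondrial genes (median 0.00, 3 at an unadjusted p under 0.05) without Etn. Of 2 lists of other small proteins, cytosolic ribosomal proteins (median length 725 nt) had 32 of 81 lower without Etn (39.5%, median -0.20), and mitochondrial ribosomal proteins (1053 nt) 16 of 77 (20.8%, median -0.14), beside the 32 of 78 of the subunit genes (41.0%) and 3.22% of all genes.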

How the data were processed

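Poly(A) RNA of 6 libraries was sequenced as paired ends, per the labels' protocols. The authors deposited 1 RPKM value per gene and library. Per the submitters' processing notes, Bowtie 0.12.2 and mm10 were used, with gene models, counter, strand and filters not given in the sources used here. Reads and transcript lengths behind the deposited RPKM values were recovered as whole numbers for 18300 of 18303 genes (99.98%, tolerance 1e-05 reads plus a relative 5e-09). Genes averaging 1 RPKM or more were tested as log2(RPKM + 1) by limma 3.58.1 (R 4.3.3; trended, robust prior) in a model of 5 group means, with 1 residual degree of freedom from the shLuc pair and a prior of 9.24. The comparison of 3 pathway libraries with shLuc had 3 and 6.37. P-values are two-sided, adjusted by Benjamini-Hochberg over all genes tested, threshold 0.05. Counts at an unadjusted p under 0.05 take lower and higher genes together. The matching shares of all genes are not given here, so these counts cannot be set against all genes. Trends with length, or length and GC content (known for 95.5% of tested genes), were removed by loess. Members and lists were chosen with earlier results of these data known. Named genes were called members (10 largest per direction and comparison), a panel of main subunits, tissue forms, extremes of level and length, those next to the filter and called list members. The values of 1 panel gene are not reported here. Other members were named after their values were seen. Promoter sequences are from RefSeq.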

Additional observations from a re-analysis of the deposited data

How the results depend on the processing

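No paired analysis was possible because each treated group held 1 library and only shLuc had replicates. Limits: the spread came from 1 pair of libraries, treated groups had no replicate, and depth limits genes such as Cox7a1. The 32 genes called lower without Etn were 32 with a pseudocount of 0.1, 44 of 74 with a mean of at least 10 RPKM, 26 with a common median ratio and 26 with limma-voom, 4 with length and 4 with length and GC removed, and 0 with no filter on low values. Over all genes 384 were lower and 70 higher, against 405 and 295 with limma-voom. For most other settings, among them that of at least 10 RPKM, the share over all genes is not given here. A rise or fall of the subunit counts in those settings can therefore not be set against all genes. The 16 of shEtnk1/2 became 0 with no filter, 6 with the median ratio, 7 with limma-voom, 1 with length and 2 with length and GC removed. The 3 between Etn-deprived and shEtnk1/2 became 0 with no filter, 7 with at least 10 RPKM, 1 with limma-voom, and 0 with length and 0 with both trends removed. The 30 against shPcyt2 became 0 with no filter, 5 with length and 5 with both removed. The 15 against shPebp1 became 0 with no filter, 29 with at least 10 RPKM, 7 with the median ratio, 1 with length and 1 with both removed. The cause of the loss with no filter was not tested. Leaving out either shLuc library gave 0 calls without Etn, 0 in shEtnk1/2 and 0 in each direct comparison of treatments (added after seeing the data), with medians of -0.27 to -0.24 and -0.19 to -0.17. Medians without Etn were, with length and with both trends removed, -0.07 and -0.13 (all), -0.12 and -0.16 (complex I), 0.01 and 0.02 (II), 0.03 and -0.09 (III), -0.04 and -0.12 (IV), -0.08 and -0.08 (V). In shEtnk1/2 the median was -0.11 with the median ratio, -0.06 with length and -0.07 with both removed, and for the 3 pathway libraries -0.05 and -0.06. Without Etn 22 of 78 subunit genes changed from below to above 0 with length removed and 17 of 77 with both trends removed. From the panel of main subunits and tissue forms these included, with length removed, Atp5c1 0.01, Cox6a1 0.13, Cox6c 0.18, Cox7a2 0.12, Cox8a 0.01, Ndufs3 0.09, Ndufs7 0.13, Sdhc 0.10 and Uqcrc2 0.03. With both removed they included Atp5c1 0.00, Cox4i1 0.01, Cox6a1 0.15, Cox6c 0.08, Cox7a2 0.11, Cox8a 0.02, Ndufs3 0.11, Ndufs7 0.18, Ndufs8 0.01 and Sdhc 0.13. Sdhc and Uqcrc2 were 0.00 with the median ratio. Leaving out a shLuc library, some ranges spanned 0: Atp5a1 -0.02 to 0.04, Sdhc -0.04 to 0.01, Uqcrc1 -0.05 to 0.10, Uqcrfs1 -0.09 to 0.29 and Cox7a2 -0.16 to 0.03. No gene called without Etn changed sign under these alternatives.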
